A study of Mus musculus with 11 samples.

Results

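Anergic CD4 T cells were compared with regulatory CD4 T cells (Treg) by ATAC-seq, which cuts open chromatin with a transposase so that reads pile up where DNA is accessible. The comparison took 3 anergic and 3 Treg libraries of the 11 in the series, and 38493 of the 38509 consensus peaks were tested. All mice were wildtype C57BL/6 animals with a polyclonal T cell repertoire and the Foxp3-GFP reporter, which makes cells expressing FOXP3 fluoresce green. Cells were sorted from mixed spleen and lymph node without any treatment. The anergic gate was CD44high, FOXP3-, CD73high, FR4high and NRP1+, and the Treg gate was FOXP3+ and CD25+. The other libraries held Teff cells (CD44high, FOXP3-, CD73low and FR4low, n = 3) and naive cells (CD44low, n = 2), which entered the fit for the estimate of the spread and are given as levels. The labels state neither the age nor the sex of the mice. They also do not say whether replicates came from separate animals; the p-values therefore rest on the spread among libraries alone, part of which may be technical.

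Anergy is a state in which a T cell that met its antigen without adequate costimulation no longer divides or makes interleukin 2 when it meets that antigen again. NFAT acting without its usual AP-1 partners, ubiquitin ligases and diacylglycerol kinases are textbook parts of that state. Treg cells instead restrain other lymphocytes, are specified by the transcription factor FOXP3, and depend on interleukin 2 made by other cells, which they bind with a high-affinity receptor that contains CD25. Both populations take part in peripheral tolerance, and part of the anergic pool is known to be able to become Treg cells. The title of the series names BATF, an AP-1 family factor, and BIM, the death-promoting protein encoded by Bcl2l11.

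Sequences of 9 of the named peaks are given first, as examples. All are distal peaks without annotated exons, shown as the central 300 bases of the plus strand of GRCm38/mm10 from RefSeq, 5′ to 3′. Capitals mark exact matches on either strand to AP-1 (TGANTCA), a BATF-IRF composite that is spaced (TTTC, a gap of 4 bases, then TGANTCA) or adjoining (GAAA joined directly to TGANTCA), NFAT (TGGAAAA), octamer (ATGCAAAT), ETS (CAGGAAGT), RUNX (TGTGGTT), forkhead (TGTTTAC), TCF and LEF (CTTTGAA) or STAT (TTCCNGGAA). Every BATF-IRF match also holds an AP-1 match. A match describes letters and does not show that a factor was bound. The first 5 regions, more open in anergic cells, lay upstream of Il21 (chr3:37257730-37258029) and Egr2 (chr10:67483416-67483715), downstream of Cd70 (chr17:57131827-57132126), within Clec16a next to Socs1 (chr16:10668812-10669111) and within Tox (chr4:6882658-6882957).
Il21: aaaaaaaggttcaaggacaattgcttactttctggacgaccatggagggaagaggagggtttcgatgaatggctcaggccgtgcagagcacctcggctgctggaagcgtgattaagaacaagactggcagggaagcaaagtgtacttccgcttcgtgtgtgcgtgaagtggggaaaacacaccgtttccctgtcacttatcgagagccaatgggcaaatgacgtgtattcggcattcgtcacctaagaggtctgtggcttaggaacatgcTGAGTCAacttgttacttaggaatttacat
Egr2: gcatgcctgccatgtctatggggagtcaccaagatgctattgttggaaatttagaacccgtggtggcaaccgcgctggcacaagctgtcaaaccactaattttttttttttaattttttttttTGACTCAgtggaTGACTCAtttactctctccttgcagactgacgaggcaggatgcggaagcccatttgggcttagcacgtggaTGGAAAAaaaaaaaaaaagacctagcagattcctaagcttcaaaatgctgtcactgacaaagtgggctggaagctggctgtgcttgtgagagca
Cd70: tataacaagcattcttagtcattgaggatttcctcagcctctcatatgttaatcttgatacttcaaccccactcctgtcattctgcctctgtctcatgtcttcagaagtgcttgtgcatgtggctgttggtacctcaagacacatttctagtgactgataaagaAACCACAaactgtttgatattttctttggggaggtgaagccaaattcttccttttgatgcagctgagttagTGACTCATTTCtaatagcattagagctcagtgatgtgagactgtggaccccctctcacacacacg
Socs1: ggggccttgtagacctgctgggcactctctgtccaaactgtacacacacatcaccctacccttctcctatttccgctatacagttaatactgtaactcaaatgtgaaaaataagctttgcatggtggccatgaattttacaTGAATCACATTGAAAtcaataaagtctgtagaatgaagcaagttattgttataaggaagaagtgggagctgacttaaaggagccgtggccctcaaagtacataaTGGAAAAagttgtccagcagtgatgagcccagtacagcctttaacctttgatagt
Tox: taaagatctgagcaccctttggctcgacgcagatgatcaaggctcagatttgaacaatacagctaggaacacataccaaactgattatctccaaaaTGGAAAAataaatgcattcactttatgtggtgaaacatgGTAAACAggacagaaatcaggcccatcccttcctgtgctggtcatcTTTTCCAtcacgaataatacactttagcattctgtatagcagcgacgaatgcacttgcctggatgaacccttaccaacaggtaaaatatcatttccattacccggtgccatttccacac

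Each of these windows held at least 1 AP-1 or NFAT match. They are examples taken from the named peaks, so their matches do not show how frequent a motif is among higher peaks. AP-1 matches were present in 15.3% of all 25758 distal peaks and NFAT matches in 7.17%. The Cd70 window held an adjoining BATF-IRF match, found in 0.412% of distal peaks, and the Socs1 window a spaced one, found in 0.396%. The other 4 windows were more open in Treg cells. They lay upstream of Il2ra (chr2:11635976-11636275), in an intron of Foxp3 (chrX:7583906-7584205), downstream of Lrrc32 (chr7:98563001-98563300) and upstream of Bach2 (chr4:32343809-32344108).
Il2ra: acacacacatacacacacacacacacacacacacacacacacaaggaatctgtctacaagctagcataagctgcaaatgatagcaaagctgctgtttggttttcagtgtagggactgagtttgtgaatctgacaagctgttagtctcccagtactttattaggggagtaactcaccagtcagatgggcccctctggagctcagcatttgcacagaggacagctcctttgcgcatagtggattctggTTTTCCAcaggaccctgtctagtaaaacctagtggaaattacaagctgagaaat
Foxp3: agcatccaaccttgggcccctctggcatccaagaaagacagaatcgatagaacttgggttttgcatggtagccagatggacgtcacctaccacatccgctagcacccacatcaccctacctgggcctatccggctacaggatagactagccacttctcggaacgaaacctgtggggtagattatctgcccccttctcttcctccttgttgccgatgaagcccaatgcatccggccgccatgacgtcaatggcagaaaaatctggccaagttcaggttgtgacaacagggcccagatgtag
Lrrc32: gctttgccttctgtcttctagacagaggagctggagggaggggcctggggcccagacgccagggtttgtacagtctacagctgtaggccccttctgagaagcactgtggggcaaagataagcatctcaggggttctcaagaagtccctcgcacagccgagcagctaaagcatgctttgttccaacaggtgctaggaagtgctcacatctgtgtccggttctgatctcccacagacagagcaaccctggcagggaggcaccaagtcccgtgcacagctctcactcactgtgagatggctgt
Bach2: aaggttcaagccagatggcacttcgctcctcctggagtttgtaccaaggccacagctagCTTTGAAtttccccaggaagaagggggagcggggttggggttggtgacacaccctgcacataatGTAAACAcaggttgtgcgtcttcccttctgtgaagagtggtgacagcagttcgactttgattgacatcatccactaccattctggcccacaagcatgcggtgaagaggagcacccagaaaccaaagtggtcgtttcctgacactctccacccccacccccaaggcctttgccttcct

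The Foxp3 and Lrrc32 windows held none of the motifs marked by capitals, and the Il2ra window held 1 NFAT match. The Bach2 window held a forkhead match (4.9% of all distal peaks) and a TCF and LEF match (8.49%). Motifs counted further below but not marked here, such as the E box CAGCTG, can be present in these windows.

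The anergic libraries held 21456894, 68818591 and 54994902 reads in peaks and the Treg libraries 29740722, 14668425 and 27386089. Signal is the deposited value, which equals reads times 1 factor per library. Across peaks, log2 signal correlated at 0.973 to 0.985 among anergic libraries, at 0.975 to 0.98 among Treg libraries and at 0.914 to 0.925 between them. They are computed over peaks, which do not count as replicates. Unplaced contigs took 0.247% to 1.05% of the signal in anergic and 0.69% to 1.39% in Treg libraries, and of 67 tested contig peaks 4 (5.97%) were called higher and 29 (43.3%) lower. In sorted bulk cells, fewer cells with a site open and less opening per cell cannot be told apart.

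Anergic and Treg cells differed at 13142 peaks, or 34.1% of those tested, by limma with a Benjamini-Hochberg adjusted p under 0.05. Of these, 7462 (19.4%) were higher and 5680 (14.8%) lower in anergic cells. The difference was at least 2-fold at 2834 higher peaks (7.36%) and 2651 lower peaks (6.89%), and at least 4-fold at 674 (1.75%) and 442 (1.15%). The 3 anergic values lay wholly above or below the 3 Treg values at 17145 peaks (44.5%), of which 12315 (32% of those tested) were called. The split between higher and lower depended on the scaling: 56.8% of called peaks were higher on the deposited scale, and 40.1% (5072 higher, 7565 lower) were higher when each library was scaled to its total reads in peaks. That scaling moved the median log2 difference of all peaks by -0.13, from 0.04, and at peaks of at least 2-fold it gave 2282 higher and 3352 lower.

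Promoter peaks, whose centre lay within 1000 bases of a RefSeq start site, differed mostly by small amounts. Of 12668 promoter peaks, 2619 (20.7%) were higher and 870 (6.87%) lower in anergic cells, but at least 2-fold only 218 (1.72%) were higher and 225 (1.78%) lower. Scaling by total reads gave 1357 higher and 1561 lower promoter peaks, so the excess of small rises at promoters was not kept on that scale. Of 25758 distal peaks, 4839 (18.8%) were higher and 4781 (18.6%) lower, and at least 2-fold 2616 (10.2%) and 2400 (9.32%). Scaled by total reads, 3713 distal peaks were higher and 5975 lower, and at least 2-fold 2127 and 3025. Of the distal peaks at least 2-fold higher, 58.1% had their centre in an intron and 38.5% between genes, against 52.3% and 42.5% of all distal peaks.

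Distal peaks at least 2-fold higher in anergic cells had a median signal of 230 in anergic and 71.7 in Treg libraries, beside 92.8 in Teff and 23.6 in naive libraries. Distal peaks at least 2-fold lower had a median of 55.1 in anergic and 157 in Treg libraries, beside 101 in Teff and 166 in naive libraries. The peaks more open in anergic cells were thus low in naive cells, and those more open in Treg cells stood near the naive level. The anergic gate took only CD44high cells, while the Treg gate as stated sets no CD44 level. A difference of CD44 level and one of cell type cannot be told apart here. The medians are over peaks and were not tested.

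**Figure D1:**
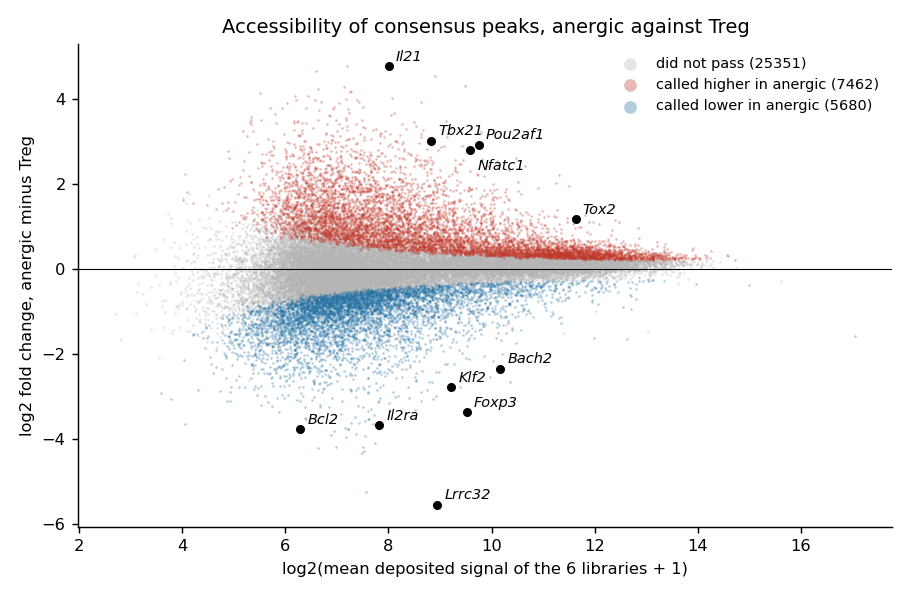
Log2 fold change of anergic minus Treg (y axis) against log2 mean deposited signal of the 6 libraries plus 1 (x axis) for 38493 peaks. Red points are the 7462 peaks called higher in anergic cells, blue points the 5680 called lower and grey points those that did not pass, and black points mark 11 named peaks, from Il21 at 4.78 to Lrrc32 at -5.56. Peaks of the highest signal were called at small differences.

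Genes that define Treg cells were among those with the largest differences in favour of the Treg libraries. Foxp3, the lineage factor, had 1 peak, an intronic one 3.57 kb into the gene (chromosome X, 7583719 to 7584393). Its signal was 184, 114 and 96.1 in the anergic libraries and 1597, 1118 and 1278 in the Treg libraries. Every Treg library stood above every anergic library, and Teff and naive libraries averaged 31.1 and 11.6. The log2 difference was -3.37 ± 0.41 (SE; adjusted p = 2.06e-06, limma). FOXP3 was used in the sort, so the difference checks the labels.

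Lrrc32 encodes GARP, the protein that holds latent TGF-beta on the Treg surface, and all 11 of its peaks fell, by log2 differences of -2.40 to -5.56. At its most changed peak, 73.2 kb downstream of the start site (chromosome 7, 98562941 to 98563362), the anergic libraries held 31.5, 19.5 and 11.4 and the Treg libraries 854, 1141 and 893. The anergic values sat at the level of Teff (32.2) and naive cells (32.1). The difference was -5.56 ± 0.48 (adjusted p = 3.23e-08), the largest fall among the named peaks. The promoter peak of Lrrc32 went from 2187, 2280 and 2332 in Treg to 378, 302 and 401 in anergic libraries, a difference of -2.66 ± 0.21 (adjusted p = 1.07e-08).

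Il2ra encodes CD25, the alpha chain of the interleukin 2 receptor and the other Treg sort marker, and 10 of its 13 peaks were lower in anergic cells. The size of the difference varied along the locus. Its 4 peaks at 5.5 to 7.59 kb upstream fell by log2 differences of -2.84 to -3.81, while the 6 called peaks at the promoter and in the first 15.0 kb of the gene fell by -0.75 to -1.3. The intronic peak at 10.8 kb, chosen after its values were seen, with 1209, 1248 and 1136 in anergic and 1533, 1094 and 1446 in Treg libraries, did not pass (-0.17 ± 0.14, adjusted p = 0.383). At the peak 6.67 kb upstream the anergic libraries held 31.5, 20.6 and 46.3 and the Treg libraries 320, 468 and 460. The groups did not overlap, and the naive mean of 180 lay between them. That difference was -3.68 ± 0.28 (adjusted p = 6.09e-09).

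Other Treg genes varied in how they followed. Of 126 peaks near the 20 genes with peaks among 22 listed as Treg identity genes, 13 were higher (10.3%) and 41 lower (32.5%), against 19.4% and 14.8% of all peaks, and their median log2 difference was -0.23 against 0.04. Lrrc32 and Il2ra gave 21 of the 41 falls. Of the 41, Il2ra gave 10 and Foxp3 1, and both genes encode markers of the Treg gate. Gpr83, a receptor abundant on Treg cells, was lower at both peaks; its promoter peak went from 1151, 1188 and 1341 in Treg to 396, 407 and 390 in anergic libraries (-1.62 ± 0.14, adjusted p = 2.07e-08). The promoter peak of Socs2, an inhibitor of cytokine signalling, held 474, 368 and 475 in anergic and 1240, 1109 and 1270 in Treg libraries (-1.46 ± 0.14, adjusted p = 1.11e-07). Beyond the named peaks, Ikzf4, encoding EOS, a partner of FOXP3, was lower at its only peak (-1.04 ± 0.14, adjusted p = 6.86e-06), as was Tnfrsf18, encoding GITR (-0.4 ± 0.15, adjusted p = 0.0386); both were chosen after their values were seen.

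Several loci that both populations are known to use were mixed. Ctla4, encoding an inhibitory receptor carried by Treg and anergic cells alike, had 21 peaks, of which 2 were higher and 3 lower. The peak 21.8 kb upstream of Ctla4 held 109, 97 and 98.1 in anergic and 694, 492 and 724 in Treg libraries, a difference of -2.62 ± 0.27 (adjusted p = 3.11e-07). The peak 6.33 kb upstream, chosen after its values were seen, went the other way, with 779, 730 and 687 in anergic and 215, 187 and 292 in Treg libraries (1.68 ± 0.22, adjusted p = 4.78e-06). The promoter peak and the large intronic peak of Ctla4 did not pass. Ikzf2, which encodes HELIOS, had 17 peaks, of which 4 were higher in anergic cells and 1 lower, and its peak 216 kb from the start site, also chosen after its values were seen, held 348, 440 and 431 in anergic and 24.8, 70.2 and 46.8 in Treg libraries (3.19 ± 0.4, adjusted p = 3.36e-06). At both loci single elements with opposite differences thus lay beside peaks that did not pass.

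The interleukin 2 and interleukin 7 receptor and STAT5 list had 7 higher (5.47%) and 65 lower peaks (50.8%) of 128, and its median was -0.50. Il2ra, Il7r, Socs2 and Bcl2 are in this list and in others. Il2ra, which encodes a marker of the Treg gate, gave 10 of the 65 lower peaks. Stat5b, encoding the main transcription factor downstream of interleukin 2, was lower at 13 of 19 peaks and higher at 2. Its peak 3.89 kb downstream of a start site held 239, 163 and 154 in anergic and 677, 636 and 703 in Treg libraries, with the naive mean at 711. The Treg values were all above the anergic ones, and the difference was -1.88 ± 0.19 (adjusted p = 3.02e-07). Jak1, the kinase bound to the receptor, was lower at 11 of 23 peaks, and Cish, a STAT5 target that dampens the pathway, at 6 of 8. Il7r, the interleukin 7 receptor alpha chain, was lower at 6 of 12 and higher at 1.

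Socs1, a further inhibitor of cytokine signalling, was divided, with 6 of 16 peaks lower and 1 higher. The higher peak lies inside the neighbouring gene Clec16a, 117 kb from the Socs1 start site that is nearest, and is the region whose spaced BATF-IRF match is shown above. It held 1277, 1525 and 1323 in anergic and 323, 500 and 441 in Treg libraries. All anergic libraries stood above all Treg libraries, and the difference was 1.72 ± 0.16 (adjusted p = 8.78e-08).

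Genes of the TGF-beta and SMAD pathway, which maintains Treg cells in the periphery, had 16 higher (11.2%) and 43 lower peaks (30.1%) of 143. Lrrc32 and Smad7 gave 24 of the 43. Smad7 encodes the inhibitory SMAD that TGF-beta signalling induces as its own brake, and all 13 of its peaks fell, by -0.67 to -2.43. Its peak 59.3 kb downstream of the start site held 756, 762 and 674 in anergic and 2113, 1852 and 1974 in Treg libraries. Teff and naive means of 1238 and 1392 lay between, and the difference was -1.44 ± 0.11 (adjusted p = 1.03e-08). Tgfbr1, encoding a receptor chain, was lower at 2 of 6 peaks, whereas Tgfbr3, encoding the coreceptor betaglycan, was higher at 7 of 17 and lower at 1. Smad3, the signal-transducing SMAD, was higher at 1 and lower at 2 of 21. Among cytokine genes Tgfb3 was lower at 4 of 7 peaks.

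**Figure D2:**
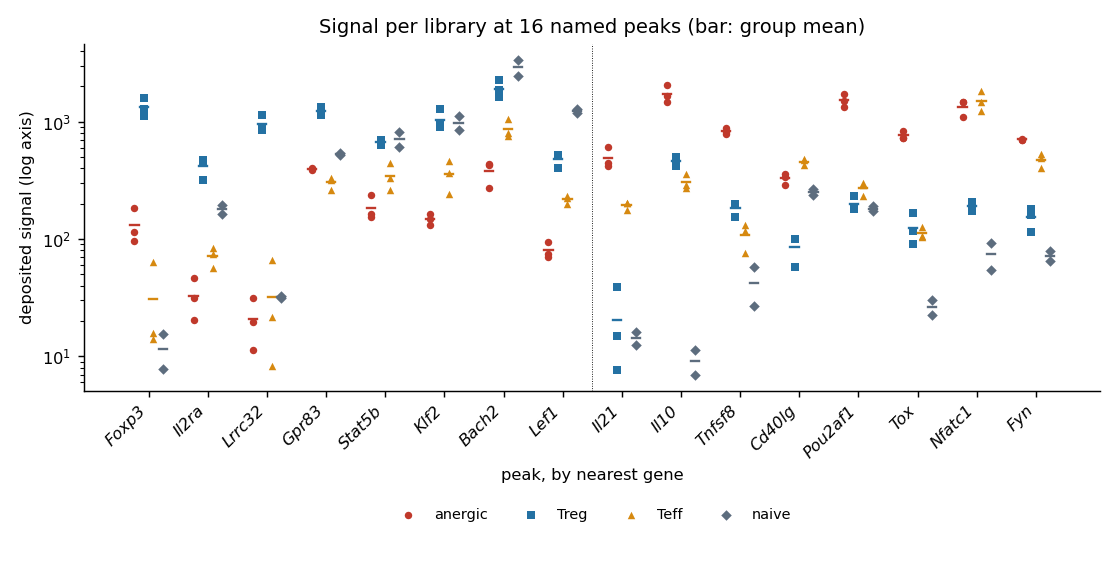
Deposited signal (y axis, log scale) in each library at 16 named peaks (x axis, nearest gene), with red circles for anergic, blue squares for Treg, orange triangles for Teff and grey diamonds for naive libraries, and a bar at each group mean. The 8 peaks left of the dotted line were lower and the 8 right of it higher in anergic than in Treg libraries. In none of the 16 did the anergic and Treg libraries overlap, but the peaks were picked for certain or large differences. Over all tested peaks the groups did not overlap at 44.5%.

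Cytokine genes stood on the other side. Of 75 peaks near the 18 cytokine genes with peaks, 42 were higher (56%) and 4 lower (5.33%) in anergic cells, and the median was 0.82. The 4 falls were those of Tgfb3. Il21, a cytokine of follicular helper cells that acts on B cells, was higher at all 7 peaks, by 0.79 to 4.78. The peak 25.2 kb upstream of Il21 held 610, 422 and 443 in anergic and 39.4, 14.9 and 7.6 in Treg libraries, with a Teff mean of 195 and a naive mean of 14.3. Its difference of 4.78 ± 0.38 (adjusted p = 1.07e-08) was the largest rise among the named peaks. At the Il21 promoter the anergic libraries held 932, 664 and 623 and the Treg libraries 33.8, 85.1 and 35.5 (3.93 ± 0.36, adjusted p = 5.61e-08).

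Il10, encoding a suppressive cytokine made by several T cell types, was higher at 10 of 13 peaks and lower at none. The peak 16.4 kb upstream of Il10 held 2071, 1482 and 1656 in anergic and 471, 419 and 503 in Treg libraries, while Teff cells averaged 308 and naive cells 9.17. The lowest anergic library stood above the highest Treg library, and the difference was 1.89 ± 0.19 (adjusted p = 2.09e-07). Il2 itself was higher at both peaks nearest to it. At the peak 26.5 kb upstream of Il2 anergic libraries held 259, 334 and 218 and Treg libraries 73.2, 66 and 88.6, a difference of 1.81 ± 0.24 (adjusted p = 6.36e-06). The naive mean there, 329, lay within the anergic range. Ifng, the Th1 cytokine, was higher at 4 of 11 peaks, and its promoter peak held 542, 429 and 445 in anergic and 63.1, 138 and 44.3 in Treg libraries (2.67 ± 0.28, adjusted p = 3.48e-07), beside 1085 on average in Teff. The Th2 cytokine genes Il4 and Il13 were higher at 4 of 4 and 5 of 7 peaks, and there too the Teff level was above the anergic one: at the named Il4 peak 408 against 176, 256 and 217.

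Ligands of the TNF family, which T cells use to signal to B cells and dendritic cells, had 35 higher (52.2%) and 3 lower peaks (4.48%) of 67, and a median of 0.72. Tnfsf8, encoding CD30 ligand, was higher at 15 of 21 peaks and lower at none. Its peak 7.29 kb from the start site held 824, 792 and 881 in anergic and 153, 198 and 200 in Treg libraries (2.18 ± 0.25, adjusted p = 1.15e-06). Cd40lg, encoding the ligand by which helper T cells license B cells, was higher at 7 of 9 peaks. The intronic peak of Cd40lg held 292, 356 and 339 in anergic and 57.4, 100 and 100 in Treg libraries (1.97 ± 0.20, adjusted p = 2.80e-07), and its Teff and naive means were 458 and 251. At this peak the Treg libraries were therefore the low group, whereas at Tnfsf8 the anergic libraries were above all others. The Cd70 peak shown above held 411, 440 and 325 in anergic and 105, 74.5 and 88.6 in Treg libraries (2.12 ± 0.28, adjusted p = 6.87e-06). All 3 lower peaks of the list belonged to Fasl, which was higher at 5 of 19.

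Receptors of the TNF family, in contrast, had 11 higher (16.4%) and 17 lower peaks (25.4%) of 67, with a median of -0.20. Tnfrsf9, encoding 4-1BB, was lower at 5 of 9 peaks, and Tnfrsf10b, a death receptor, at all 4. The Tnfrsf10b peak in its intron held 204, 354 and 284 in anergic and 715, 636 and 652 in Treg libraries (-1.28 ± 0.17, adjusted p = 6.55e-06). Tnfrsf14, encoding the receptor of the ligand LIGHT, was higher at 2 of 5, with 648, 707 and 551 against 248, 238 and 282 at its named peak (1.3 ± 0.17, adjusted p = 7.54e-06).

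Genes of follicular helper cells, the CD4 cells that help B cells in germinal centres, had 75 higher (45.7%) and 23 lower peaks (14%) of 164, and a median of 0.52. Il21, Il4, Pdcd1, Btla, Cd200, Tox2 and Maf, among others, are also in other lists. Pou2af1, encoding the octamer coactivator OCA-B, was higher at all 5 peaks. The peak over its 3′ UTR held 1719, 1502 and 1340 in anergic and 179, 183 and 233 in Treg libraries, and its Teff and naive means were 274 and 181. All 3 other groups stood far below the anergic libraries there, and the difference from Treg was 2.93 ± 0.16 (adjusted p = 3.91e-10). The promoter peak of Cebpa, encoding a transcription factor better known from myeloid cells, held 2353, 2187 and 2279 in anergic and 603, 624 and 685 in Treg libraries (1.83 ± 0.14, adjusted p = 5.39e-09). Icos, a costimulatory receptor, was higher at 9 of 21 peaks and Maf at 10 of 22.

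Lower peaks of the list lay mostly at Il6st and Bcl6. Il6st, encoding the signalling chain of the interleukin 6 receptor, was higher at 3 and lower at 9 of 25 peaks. Bcl6, the defining factor of the follicular helper lineage, was lower in anergic cells at 8 of 9 peaks and higher at none. The differences were between -0.35 and -1.69, and at the peak 0.621 kb upstream of Bcl6 the anergic libraries held 56.4, 70.6 and 49 and the Treg libraries 177, 196 and 198 (-1.69 ± 0.24, adjusted p = 1.27e-05). That Bcl6 peak was chosen after its values were seen. Cxcr5, the chemokine receptor that brings these cells to follicles, was higher at 2 and lower at 1 of 9 peaks; its promoter peak, also chosen after its values were seen, held 2794, 2792 and 2485 in anergic and 1600, 1784 and 1985 in Treg libraries (0.59 ± 0.12, adjusted p = 0.000493).

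Inhibitory receptors and the TOX factors, which mark T cells under chronic stimulation, had 40 higher (35.7%) and 10 lower peaks (8.93%) of 112, and a median of 0.34. Tox2 was higher at all 7 peaks and Tox at 10 of 22, with 1 lower. At the intronic Tox peak shown above, anergic libraries held 839, 732 and 723 and Treg libraries 91.2, 117 and 166, beside 113 on average in Teff and 26.5 in naive libraries. The difference was 2.65 ± 0.23 (adjusted p = 2.85e-08). The Tox2 promoter peak held 4571, 4354 and 4267 in anergic and 1925, 1843 and 2036 in Treg libraries (1.18 ± 0.10, adjusted p = 2.38e-08). Pdcd1, encoding PD-1, was higher at 5 of 8 peaks, Btla at 4 of 7, Cd200 at 4 of 8 and Tigit at 4 of 14, with no lower peak in these 4 genes. Cd5 was lower at 3 of 6 and Cd96 at both of its 2 peaks.

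**Figure D3:**
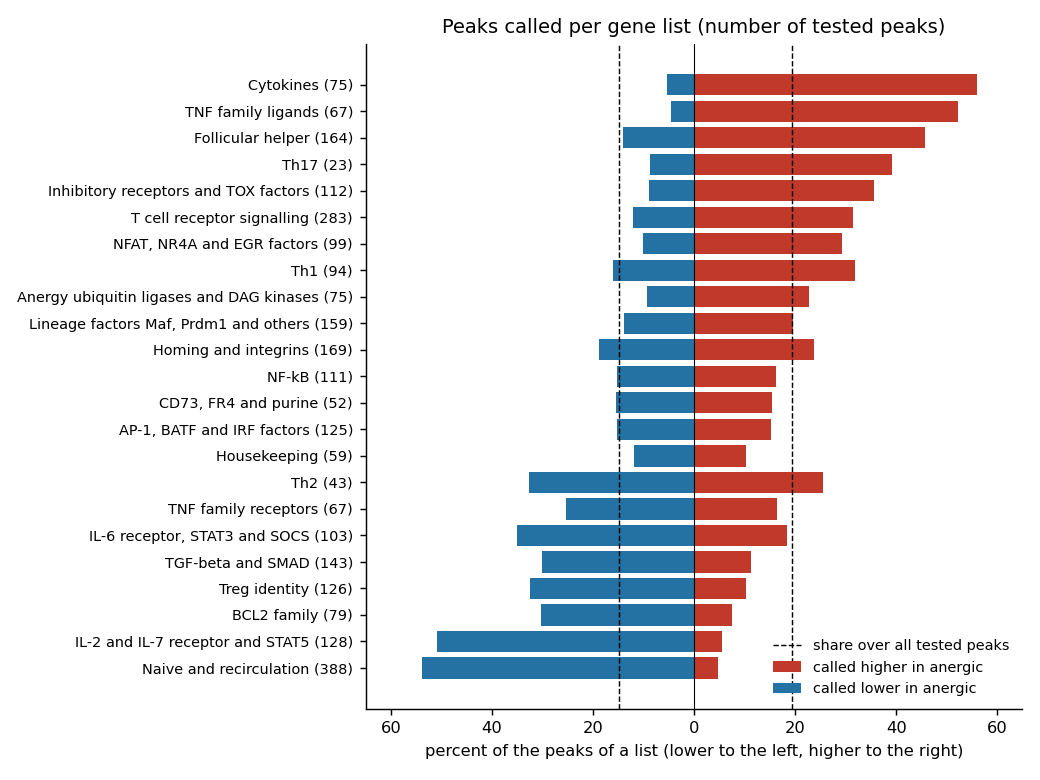
Percent of the tested peaks of each of 23 gene lists (rows, with the number of peaks) that were called higher in anergic cells (red, right) or lower (blue, left), ordered by the difference. Dashed lines mark the shares over all tested peaks, 19.4% higher and 14.8% lower. Cytokines, at 56% higher, and the naive and recirculation genes, at 53.9% lower, stand at the ends.

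Transcription factors of the NFAT, NR4A and EGR families, which T cell receptor signals induce or activate, differed from gene to gene. The list had 29 higher (29.3%) and 10 lower peaks (10.1%) of 99. Nfatc1 gave 14 of the 29, and Nr4a1 gave 5 of the 10. Nfatc2 was higher at 3 and lower at 1 of 14 peaks, and Nfatc3 higher at 2 of 9. Egr1 was higher at 3 of 5, and Egr3 higher at 2 and lower at 1 of 14. Nr4a2 was lower at 1 of 5 peaks and Nr4a3 at 1 of 7. Nfatc1, encoding an NFAT that induces its own gene, was higher at 14 of 17 peaks, and these 14 followed each other without a gap over 44.2 kb. Its peak 23.6 kb inside the gene held 1471, 1472 and 1098 in anergic and 189, 209 and 172 in Treg libraries. The Teff mean of 1516 was close to the upper anergic values, and the difference from Treg was 2.81 ± 0.19 (adjusted p = 1.62e-09). Egr2, a factor that anergy and tolerance studies have often followed, was higher at 4 of 8 peaks. The Egr2 peak shown above held 449, 409 and 330 in anergic and 109, 49 and 36.7 in Treg libraries (2.73 ± 0.36, adjusted p = 5.35e-06). Nr4a1, an orphan nuclear receptor induced by antigen receptor signals, went the opposite way, with 5 of 8 peaks lower and none higher. At its 3′ UTR, anergic libraries held 76.3, 52.2 and 40.3 and Treg libraries 298, 228 and 261 (-2.24 ± 0.25, adjusted p = 8.43e-07).

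Genes of T cell receptor signalling had 89 higher (31.4%) and 34 lower peaks (12%) of 283. Fyn, an SRC-family kinase, was higher at 22 of 24 peaks, and a run of 19 consecutive tested peaks over 68.4 kb, 18 of them nearest to Fyn, was called higher throughout. Its most certain peak held 706, 698 and 716 in anergic and 181, 162 and 116 in Treg libraries (2.22 ± 0.18, adjusted p = 1.61e-08). Ptpn22, a phosphatase that dampens receptor signals, was higher at 9 of 11 peaks. The kinase gene Zap70 was higher at 6 of 11, with 801, 882 and 815 against 284, 358 and 303 at its named peak (1.41 ± 0.17, adjusted p = 2.00e-06). Prkcq, encoding protein kinase C theta, was higher at 3 and lower at 6 of 28.

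The ubiquitin ligases and diacylglycerol kinases linked to anergy had 17 higher (22.7%) and 7 lower peaks (9.33%) of 75, with a median of 0.10, which is close to the share over all peaks on the higher side; scaled by total reads it had 15 higher and 13 lower. Rnf128, encoding the ligase GRAIL, was higher at both peaks, and its promoter peak held 799, 784 and 860 in anergic and 401, 281 and 314 in Treg libraries (1.31 ± 0.15, adjusted p = 9.86e-07). Ndfip1, an activator of such ligases, was higher at 5 of 7. Cblb, encoding the ligase CBL-B, was higher at 2 and lower at 1 of 19. Dgkz, encoding a diacylglycerol kinase, was higher at 1 and lower at 3 of 13.

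Genes of naive and recirculating T cells were lower in anergic than in Treg cells. Only the anergic gate required CD44high cells, so CD44 level and cell type cannot be told apart in this result. Of 388 peaks near 18 such genes, 18 were higher (4.64%) and 209 lower (53.9%), and the median was -0.70, the lowest of the 23 lists. Bach2, encoding a repressor that competes with AP-1 factors, was lower at 37 of 51 peaks and higher at 1. A run of 24 consecutive tested peaks over 111 kb upstream of Bach2 was lower throughout, with a median of -2.01. The Bach2 peak 73.5 kb upstream held 429, 435 and 275 in anergic and 2256, 1633 and 1879 in Treg libraries, and its Teff and naive means were 873 and 2908. The anergic libraries were thus the lowest of the 4 groups there, and the difference from Treg was -2.35 ± 0.17 (adjusted p = 4.73e-09).

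Other genes of the list were lower as well. Klf2, encoding the factor that keeps T cells recirculating, was lower at 10 of 16 peaks, and 23.2 kb upstream it held 133, 163 and 149 in anergic and 900, 937 and 1288 in Treg libraries, with the naive mean at 983 (-2.79 ± 0.20, adjusted p = 2.80e-09). Lef1, a partner of beta-catenin, was lower at 31 of 49, and its named peak held 94.5, 74.9 and 70.5 in anergic, 523, 400 and 522 in Treg and on average 1230 in naive libraries (-2.58 ± 0.17, adjusted p = 1.62e-09). Satb1, a chromatin organiser, was lower at 19 of 21 peaks and Foxp1, a quiescence factor, at 43 of 59. Tcf7, encoding TCF1, had 5 higher and 3 lower of 27 peaks and a median of 0.00. Ccr7, the lymph node homing receptor, was lower at 9 of 18 and higher at 1.

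**Figure D4:**
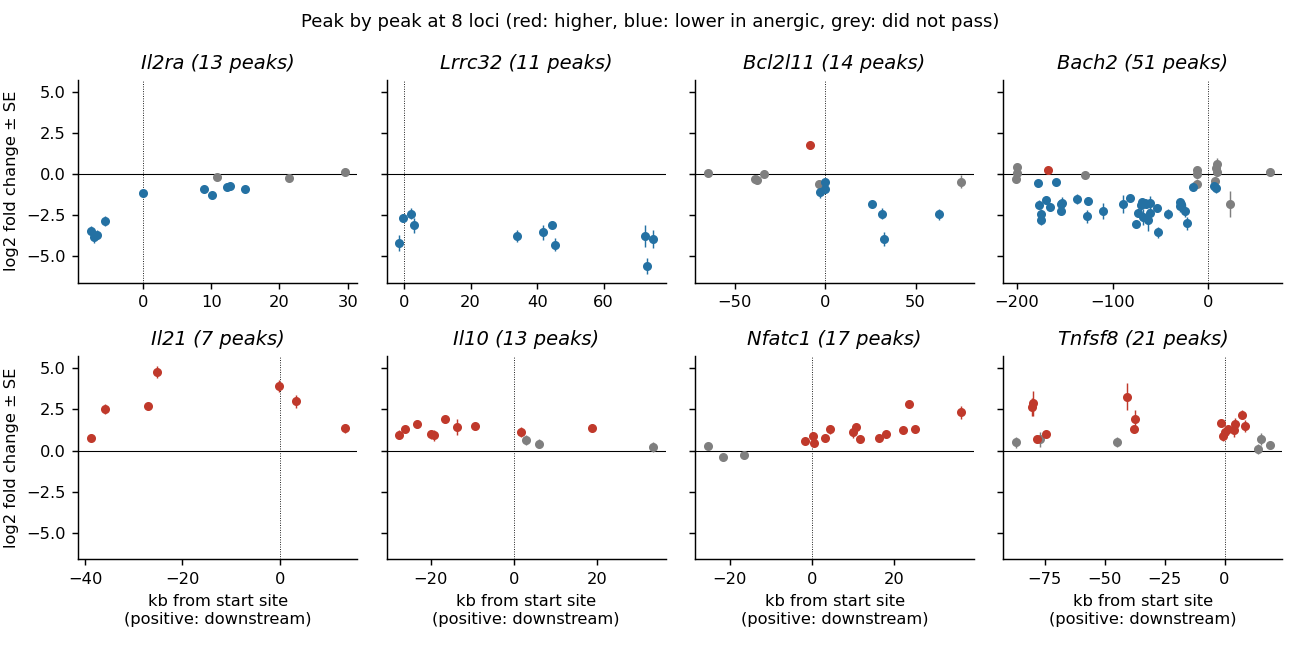
Log2 fold change of anergic minus Treg with its SE (y axis) for each tested peak of 8 genes against its distance from the nearest start site of the gene in kb (x axis, positive downstream). Red points were called higher, blue points lower, and grey points did not pass. Il2ra differs most at its upstream peaks, all 11 Lrrc32 peaks are lower, and Bcl2l11 has 1 higher peak upstream among 7 lower ones.

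The BCL2 family decides whether a T cell dies by apoptosis and had 6 higher (7.59%) and 24 lower peaks (30.4%) of 79, with a median of -0.15. Bcl2l11, encoding the death-promoting protein BIM, had 14 peaks, of which 7 were lower in anergic cells and 1 higher. The peak in its intron, 25.8 kb downstream of the start site (chromosome 2, 128152778 to 128154012), held 378, 381 and 232 in anergic and 1135, 1198 and 1065 in Treg libraries. The Teff and naive means of 1548 and 1439 stood above both, and the difference was -1.81 ± 0.17 (adjusted p = 6.28e-08). At the peak over the 3′ UTR, 32.4 kb downstream, the anergic libraries held 29.8, 4.74 and 16.1 and the Treg libraries 234, 213 and 208 (-3.92 ± 0.42, adjusted p = 4.58e-07). The promoter peaks of Bcl2l11 fell less, by -0.49 and -0.89.

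The single higher peak at Bcl2l11 lay 8.21 kb upstream of its start site and was chosen after its values were seen. It held 517, 496 and 383 in anergic and 164, 106 and 147 in Treg libraries, with Teff and naive means of 130 and 38.8, and the difference was 1.74 ± 0.25 (adjusted p = 1.78e-05). Bbc3, encoding the death-promoting protein PUMA, was lower at 4 of 6 peaks, with 4768, 5073 and 5693 in anergic and 7436, 7921 and 8490 in Treg libraries at its promoter (-0.62 ± 0.10, adjusted p = 5.69e-05). Genes that protect cells were mixed. Bcl2 was lower at 7 of 16 and higher at 1, with 8.29, 20.6 and 4.7 in anergic and 119, 158 and 151 in Treg libraries at its named intronic peak (-3.77 ± 0.40, adjusted p = 3.72e-07). Mcl1 was lower at 3 of 8 peaks and higher at none. Bcl2a1a was higher at both of its 2 peaks and Bcl2a1b at 1 of 2, and these near-identical copies may share reads. Bcl2l1 had no called peak.

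Batf, the factor named in the title, was higher in anergic cells at 4 of 10 peaks and lower at none. Its peak 26 kb downstream of the start site (chromosome 12, 85712567 to 85712824) held 187, 156 and 120 in anergic and 55.2, 63.9 and 76 in Treg libraries (1.23 ± 0.30, adjusted p = 0.00296). At its promoter peak, chosen after its values were seen, the anergic libraries held 1253, 1363 and 1282 and the Treg libraries 963, 830 and 985 (0.49 ± 0.14, adjusted p = 0.00931). The list of AP-1, BATF and IRF factor genes as a whole had 19 higher and 19 lower peaks of 125 (15.2% each) and a median of 0.01; scaled by total reads it had 11 higher and 28 lower. Irf4, the partner of BATF at composite sites, was higher at 4 and lower at 1 of 18, and its peak 37.1 kb downstream held 1026, 1094 and 775 in anergic and 457, 424 and 455 in Treg libraries (1.10 ± 0.14, adjusted p = 5.31e-06).

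Loci of the other sort markers differed less. Nt5e, encoding CD73, was higher at 3 of 7 peaks and lower at 1, and its intronic peak 5.03 kb from the start site held 534, 638 and 604 in anergic and 188, 353 and 257 in Treg libraries (1.19 ± 0.22, adjusted p = 0.000271). Izumo1r, encoding FR4, which Treg cells also carry, was higher at 1 and lower at 1 of 7 peaks; its named peak held 1424, 1510 and 1204 against 714, 711 and 671 (0.97 ± 0.13, adjusted p = 6.19e-06). Nrp1 was higher at 3 of 13 peaks, all of them over or beyond the end of the gene. The farthest of these, 159 kb from the start site, held 264, 425 and 355 in anergic and 168, 209 and 116 in Treg libraries (1.09 ± 0.29, adjusted p = 0.00581). Its promoter peak, chosen after its values were seen, with 600, 686 and 720 against 564, 683 and 627, did not pass (0.1 ± 0.14, adjusted p = 0.626). Cd44 was higher at 6 of 16 peaks, and Cd4 at 1 of 4 (0.85 ± 0.14, adjusted p = 6.14e-05, at an intronic peak with 1545, 1691 and 1330 against 1026, 790 and 731).

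Helper lineage genes were not alike. The Th1 list had 30 higher (31.9%) and 15 lower peaks (16%) of 94, and 23 and 21 when scaled by total reads. Tbx21, encoding the Th1 factor T-BET, was higher at 8 of 12 peaks, with 933, 747 and 742 in anergic, 84.5, 143 and 76 in Treg and on average 788 in Teff libraries at its named peak (3.03 ± 0.21, adjusted p = 2.57e-09). The Th17 list had 9 higher and 2 lower of 23, and the Th2 list 11 higher and 14 lower of 43. Gata3, the Th2 factor that Treg cells also use, was lower at 6 of 13 peaks and higher at 1, and Il4ra, encoding the interleukin 4 receptor chain, was lower at 6 of 7. In the interleukin 6 receptor, STAT3 and SOCS list 19 of 103 peaks were higher and 36 lower, or 9 and 39 when scaled by total reads. Il21r, the receptor gene of the ligand gene that was higher throughout, was lower at 17 of 23. At the named Il21r peak the anergic libraries held 166, 118 and 132 and the Treg libraries 468, 460 and 544 (-1.83 ± 0.17, adjusted p = 9.89e-08).

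Homing and integrin genes, NF-kB genes, CD73 and purine genes and the lineage factors had shares near those of all peaks, with medians of 0.09, -0.05, -0.05 and 0.01. Scaling by total reads turned the balance of homing genes from 40 higher and 32 lower to 32 and 41, and that of lineage factors from 31 and 22 to 20 and 34. The NF-kB list went from 18 and 17 to 14 and 27, and the CD73 and purine list from 8 and 8 to 5 and 11. Within them, Itgb1, encoding the integrin beta 1 chain, was higher at 9 of 13 peaks, and Selplg, encoding the selectin ligand PSGL-1, was lower at 9 of 12. Housekeeping genes had 6 higher and 7 lower peaks of 59, a share of 10.2% and 11.9%, and 3 and 10 when scaled by total reads.

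Markers of other cells were checked in the same libraries, and their part in the differences above was not tested. Of 10 B cell marker genes 7 had no peak, among them Cd79a, Ms4a1 and Pax5, and the 6 peaks of the other 3 summed to 503 to 597 in anergic and 604 to 619 in Treg libraries, with 1 higher and 2 lower. Of 12 myeloid and dendritic markers 6 had no peak, among them Csf1r and Lyz2, and the sums over 16 peaks overlapped (7662 to 7721 and 7132 to 8089). For CD8, NK and innate-like T cell markers the sums overlapped as well (21007 to 26494 and 19591 to 25003), with Cd8a, Gzma, Klra1 and Ncr1 without a peak, yet 13 of 29 peaks were higher in anergic cells and 3 lower. Zbtb16, encoding PLZF, the factor of NKT cells, gave 10 of those 13. Klrb1c gave the other 3, at 3 of its 11 peaks. For erythroid and platelet markers, without peaks at Gata1, Hba-a1 and Pf4 among others, sums over 8 peaks were 4797 to 5173 and 3623 to 3778; 3 peaks, all of Itga2b, were higher and 1 was lower. T cell markers had peaks at all 7 genes matched and summed to 35013 to 38170 in anergic and 27686 to 27854 in Treg libraries.

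At the top of the ranking stood loci outside the lists. Of 1506 genes with at least 6 tested peaks, 8 were higher at every peak and 12 lower at every peak. Among those higher throughout were Smco4 (10 peaks), Il21, Tox2 and Cacng5 (7 each), and Galnt9, Scimp and Synpo (6 each). Those lower throughout included Smad7, Lrrc32, Dusp5 (10 peaks), Eif4e3 and Rras2 (9 each), Gpr146 (8), and Irgc1 (7). Dusp5 encodes a phosphatase that inactivates ERK, and Rras2 a small GTPase of the RAS family. The peak 9.15 kb upstream of Dusp5 held 172, 179 and 148 in anergic and 840, 541 and 648 in Treg libraries (-1.99 ± 0.19, adjusted p = 8.55e-08). The intronic Rras2 peak held 39.8, 63.3 and 56.4 against 363, 349 and 446 (-2.85 ± 0.21, adjusted p = 5.39e-09).

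Single distal peaks of the largest rise included those near Il21, Chn1os3, Ubap2, Olfr157, Ptpn11, Dusp14 and Trp53cor1. The nearest start site need not be that of the gene an element acts on. The intronic Ptpn11 peak, in the gene of the phosphatase SHP-2, held 1046, 1043 and 948 against 92.3, 145 and 53.2 (3.49 ± 0.27, adjusted p = 6.35e-09). The Teff and naive means there were 272 and 20.7, so the anergic libraries were above every other group. A run of 18 consecutive higher peaks over 129 kb (chromosome 9, 61702009 to 61830714), with a median of 1.89, had Rplp1 as its nearest gene throughout, and a run of 13 lower peaks over 125 kb lay nearest to Otulinl.

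The DNA of distal peaks differed with the direction of the difference. AP-1 matches lay in 31.5% of distal peaks at least 2-fold higher in anergic cells, in 13.3% of those not called and in 9.21% of those at least 2-fold lower. NFAT matches lay in 16.8%, 6.36% and 2.92%, and octamer matches in 4.59%, 1.65% and 0.792%, against 1.93% of all distal peaks. The adjoining BATF-IRF composite was in 1.38%, 0.279% and 0.125%, and the spaced form in 1.45%, 0.26% and 0%. The order was reversed for ETS (7.11%, 8.43% and 13.2%, against 9.1% of all) and for the E box CAGCTG (16.7%, 19% and 21.7%, against 19.1%). RUNX matches (19.2%, 13.9% and 14.8%) and T-box matches (AGGTGTGA, 3.78%, 1.98% and 1.83%) were most frequent among higher peaks. So were TCF and LEF matches (12.1%, 8.1% and 8.17%), although the window with such a match shown above, at Bach2, was more open in Treg cells. Forkhead matches differed little (5.93%, 4.75% and 5.38%), and CTCF matches were most frequent among peaks not called (0.306%, 4.76% and 1.62%). STAT matches were in 0.726%, 0.929% and 1.21%.

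Read by the peaks that carried them, the motifs showed the same order. Of 336 distal peaks with both an AP-1 and an NFAT match, 47% were higher and 6.55% lower. With AP-1 alone (3605 peaks) 32.6% were higher and 12.1% lower, with NFAT alone (1511 peaks) 31.6% and 10.8%, and with neither (20306 peaks) 14.9% and 20.5%. Of 207 peaks with a BATF-IRF composite of either form, 53.6% were higher and 4.35% lower, with a median of 0.72, and of 479 peaks with 2 or more AP-1 matches 49.7% and 5.01%. ETS matches without AP-1 (2001 peaks) went with 14.7% higher and 25.7% lower. Mean GC content was 46.1% in peaks with both AP-1 and NFAT, 47.4% to 48.3% with 1 of them and 50.3% with neither, and its part in these shares was not tested. Peaks at least 2-fold higher were wider (median 358 bases) than those at least 2-fold lower (259 bases), though the window searched was 300 bases for all.

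**Figure D5:**
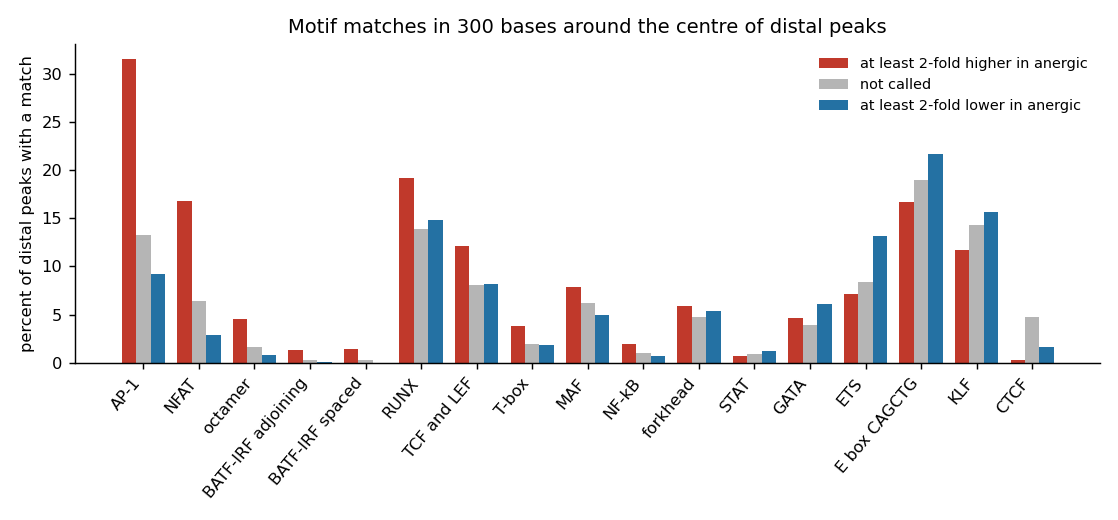
Percent of distal peaks with at least 1 match to each of 17 motifs (x axis) in the 300 bases around the peak centre (y axis, percent), for peaks at least 2-fold higher in anergic cells (red), not called (grey) and at least 2-fold lower (blue). AP-1 (31.5%) and NFAT (16.8%) are each more frequent among the higher peaks than among the other groups of peaks. ETS (13.2%) is more frequent among the lower peaks than among the other groups.

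Autosomes varied: chromosome 14 had 22.9% of peaks higher and 11.9% lower, and chromosome 6 had 16% and 18%. Chromosome X lay outside the range of the autosomes. On X, 23.9% of 779 peaks were higher and 5.01% lower, with a median of 0.18, while medians on the autosomes ran from -0.04 to 0.09. Cd40lg, Rnf128 and Foxp3 lie on X, the last of them lower. The sex of the mice is not given in the sources used here, and whether the libraries of both groups shared it was not tested.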

How the data were processed

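ATAC-seq signal was analysed in 3 anergic and 3 Treg libraries, with 3 Teff and 2 naive libraries in the same fit. Per the series' design text, the authors trimmed reads with Trimmomatic 0.38.1, aligned them to mm10 with Bowtie2 2.3.3.1, called peaks with Genrich 0.5 and built 38509 consensus peaks with DiffBind 2.10.0. The deposited signal values were whole reads times 1 factor per library (100% whole within 0.01). How the authors set these factors is not given in the sources used here. They match median-ratio size factors closely: factor times DESeq2 size factor was 1.003 to 1.042 in every library. For scaled reads of this kind limma-trend (limma 3.58.1 under R version 4.3.3) was fitted by group to log2(deposited signal + 1) after filterByExpr removed 16 peaks, with adjusted p by Benjamini-Hochberg over 38493 peaks and a threshold of 0.05. A log2 fold change on this scale understates changes of low peaks, and ± gives its standard error. On the recovered reads, edgeR 4.0.16 called 12820 peaks and DESeq2 1.42.0 called 13633.

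Coordinates are those of the file, on mm10. Peaks were assigned by their centre to the nearest of 44322 RefSeq transcript starts, and the gene part is that at the centre. The gene lists (401 entries, of which Trac did not match a gene) came from general knowledge, and the lists and the comparison itself were chosen with earlier results of these data known. Lists share genes, and peaks of 1 gene are not independent. Named peaks were, for each sort marker with Batf and Bcl2l11, the most certain peak; the 8 largest called changes in each direction, and the 5 largest at promoters, without overlap between groups; genes with at least 6 peaks called most uniformly; up to 4 genes of each list; and the 5 longest runs in each direction. Deviations from the group means correlated at 0.00351, 0.0217 and 0.155 between anergic and Treg libraries of the same replicate number. Between libraries of unlike numbers they correlated at -0.165 to 0.114. These values do not settle whether replicate numbers pair the libraries, and the main fit used no pairing. In simulated reads for this comparison over 38493 peaks, 67 peaks were changed 1.5-fold, 65 were changed 2-fold and 68 were changed 4-fold. Limma recovered 31.3% of peaks changed 1.5-fold, 69.2% of those changed 2-fold and all 68 changed 4-fold, with 17 false calls. The share changed was far below the 34.1% called in the data. An adjusted p was therefore harder to pass in the simulation, and its recovery may be too low for the data. Some genes that met these rules are not reported here.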

Additional observations from a re-analysis of the deposited data

How the results depend on the processing

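All 124 named peaks kept their direction and stayed under the threshold in each of 18 alternatives. They were chosen from the main fit for certain, large or uniform differences, so this says little about other peaks. Over all called peaks, none was called in the opposite direction in any alternative. Between 75.3% and 99.9% of the 13142 called peaks were called again. Leaving out 1 library at a time gave 10178 to 12992 called peaks, 5639 to 7318 higher and 4320 to 5674 lower, with 2480 to 3040 and 2202 to 3087 at least 2-fold. Thinning each library to the reads of the shallowest, scaled by total reads, gave 4554 higher and 6769 lower peaks, and scaling by total reads alone 5072 and 7565. TMM scaling gave 6370 and 6381, edgeR 6582 and 6238, and DESeq2 7662 and 5971. With the replicate number as a block, 13884 peaks were called (7843 higher and 6041 lower), or 14002 with only the 6 libraries (8220 and 5782); the block changed no call of a named peak. Small differences can be missed. At these depths and numbers of libraries, 31.3% of simulated 1.5-fold changes were recovered. Far fewer peaks changed in the simulation than were called in the data, and its unchanged peaks were not level between the groups. Recovery in the data may therefore differ. What limits recovery was not tested.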
